A study of Homo sapiens with 16 samples.

Results

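The genes described here are 40 genes of the cellular response to low oxygen and of glycolysis, out of 18227 genes with values in the deposited expression tables. They were chosen by name: each is a row whose gene symbol stood on a list of known members, and all 40 were found. They form 2 sets that are kept apart throughout. The HIF set holds 23 genes, namely the alpha subunits of the hypoxia-inducible factors, the enzymes that sense oxygen, and genes that these factors are known to switch on. The glycolytic set holds 17 genes, namely the enzymes that turn glucose into lactate and the bifunctional enzymes that tune the pathway.

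Expression was measured by RNA sequencing in 16 libraries made from the A549 and H2023 cell lines, both of them established human lines grown from non-small cell lung cancers. Wild-type cells of both lines were compared with cells labelled as a knockout of ZC3H12A, the gene of Regnase-1, an RNase that cleaves a set of mRNAs and so shortens their life. Cells were in normal culture for 3 days or in a stem-cell-enriched oncosphere culture, here called oncosphere, for 7 days, so that culture type and days in culture change together. The 8 groups are therefore A549 wild-type and A549 ZC3H12A knockout, and H2023 wild-type and H2023 ZC3H12A knockout, each in normal and in oncosphere culture, with 2 libraries in each group. The titles name 1 clone per line for the knockout, so the edit and anything else that sets that clone apart cannot be told apart. The labels name no oxygen level and no added agent, and nothing in them says that the 2 libraries of a group came from separate cultures, so p-values measure the spread between these libraries, which may be technical.

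Hypoxia-inducible factors are pairs of an oxygen-controlled alpha subunit (HIF1A or EPAS1, also called HIF-2 alpha) and a stable beta subunit, ARNT. When oxygen is present, prolyl hydroxylases of the EGLN family mark the alpha protein for destruction through the VHL complex, so that the control acts mainly on the protein and not on the mRNA. When oxygen is short, the pair binds DNA at a short core sequence and raises genes for glucose uptake, glycolysis, acid export, blood vessel growth, matrix modification and the removal of mitochondria. EGLN3 is both an oxygen sensor and a target of the pathway, and carbonic anhydrase 9 (CA9) is widely used as a marker of hypoxic tumour cells. Many lung cancers also run glycolysis in the presence of oxygen.

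ZC3H12A mRNA was read in every library first. It stood at 30.7 and 34.9 TPM (a level scaled for transcript length and then to a fixed total in each library) in A549 wild-type normal culture, and at 16.9 and 19.9 TPM where the label reads knockout. In the remaining 3 pairs of groups it was higher under the knockout label: 48.5 and 49.2 against 60.2 and 55.6 TPM in A549 oncosphere, 26.8 and 29.8 against 41.5 and 41.5 TPM in H2023 normal, and 32.5 and 26.4 against 94.6 and 69.2 TPM in H2023 oncosphere culture. The mRNA was thus higher under the knockout label in 3 of 4 pairs, and an mRNA level alone does not show whether the gene was edited. The edit itself was not examined here, and "labelled knockout" below means the label only. The sequencing depth of a library is unknown, since TPM does not keep it. Mitochondrially encoded genes took 10.3% to 18.7% of TPM in normal and 19.5% to 25.6% in oncosphere culture. Epithelial markers (EPCAM, KRT8, KRT18, KRT19, CDH1) reached 1 TPM in all 5 cases in each group apart from A549 normal labelled knockout, where 3 of 5 did, with a sum of 1450 and 2523 TPM against 7417 and 7626 TPM in its wild type. Under the knockout label the epithelial sum was instead higher in H2023, at 9816 and 10677 TPM against 5887 and 7299 TPM in normal and 6553 and 7087 TPM against 3420 and 3446 TPM in oncosphere culture, lowest library first. KRT8 and KRT18 made up most of these sums, and other markers went the other way in H2023 normal culture. There KRT19 had 126 and 130 TPM under the knockout label against 374 and 258 TPM in wild type. EPCAM had 15.59 and 11.85 against 20.25 and 17.8 TPM, and the CDH1 groups overlapped. In H2023 oncosphere culture the groups of EPCAM and of CDH1 overlapped. The part of these shifts in the results was not tested. Endothelial and fibroblast marker sums were at most 10.1 TPM in any library, over 1 of 3 and 3 of 5 listed genes, and in these 2 lists the defining genes CDH5, VWF, DCN and COL1A2 were not analysed here. The leukocyte list had 2 of 5 genes measured (CD14 and CD68), with sums from 31.3 to 226 TPM. In bulk RNA, fewer cells expressing a gene and less RNA per cell cannot be told apart.

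The core sequence ACGTG was searched in the promoters, because members that move together may share it, and the sites below show where it stands in genes whose knockout effect differed between the cultures. A promoter here is the 250 bases before the gene start in RefSeq (GRCh38.p14), read on both strands, and the palindrome CACGTG counted as a match. RefSeq entries were found for 36 of the 40 genes. A match stood in 25 of their 56 promoter windows (44.6%), against 3873 of 17734 windows (21.8%) for all genes of the expression tables and 6501 of 35116 (18.5%) for the whole promoter table. The share was 45.8% of windows for the HIF set and 43.8% for the glycolytic set. Counted by gene, 22 of the 36 (61.1%) had a match, against 3437 of 12316 genes (27.9%) of the expression tables. Of the 15 genes that passed the test for a culture-dependent knockout effect in A549, BNIP3L and VEGFA had no entry. Among the other 13, 8 had a match (61.5%), close to the 14 of 23 (60.9%) of the members that did not pass. A match describes letters in a window and does not show that a factor binds there. For each of the 8 genes 1 site is printed, the match nearest to a gene start, 5′ to 3′ on the strand of the gene, 30 bases each, with the match in capitals. ALDOC, BHLHE40 and PGK1 held 3, 4 and 2 matches in the window printed from, and the palindrome of BNIP3 matches on both strands. In GRCh38.p14 they lie at chr17:28576907-28576936 (ALDOC, minus strand), chr3:4979275-4979304 (BHLHE40, plus), chr10:131982040-131982069 (BNIP3, minus), chr9:35673897-35673926 (CA9, plus), chr3:122384085-122384114 (FAM162A, plus), chr10:110210105-110210134 (MXI1, plus), chr10:73096936-73096965 (P4HA1, minus) and chrX:78104052-78104081 (PGK1, plus).
ALDOC: cccccggaggagtCACGTagctctgcgaca
BHLHE40: tcacagggtagaaCACGTagctccaaccca
BNIP3: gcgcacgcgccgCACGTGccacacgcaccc
CA9: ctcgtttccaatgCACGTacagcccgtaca
FAM162A: ccagcgcgtggcgCACGTcctacacgcccc
MXI1: cgtggccaccagtCACGTaagcagagagcc
P4HA1: gtgtgatcgagctCACGTagcgagggctgc
PGK1: caaacggaagccgCACGTctcactagtacc

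The alpha subunits were described in every group, whatever their test. HIF1A (ENSG00000100644, chr14:61695513-61748259 in GRCh38) was among the higher transcripts of its set, between 185 and 516 TPM. A549 wild-type libraries had 292 and 270.02 TPM in normal and 244 and 225 TPM in oncosphere culture, and the labelled knockout had 437 and 353 TPM, then 499 and 516 TPM. In H2023 the wild type had 327 and 342 TPM in normal and 242 and 185 TPM in oncosphere culture, and the labelled knockout had 444 and 359 TPM, then 455 and 336 TPM. Both labelled knockout libraries thus lay above both wild-type libraries in all 4 pairs of groups. The share of all genes that did so was not counted. The difference in log2(TPM + 1), on which all differences below are given and which understates the change of genes with low values, was 0.48, 1.11, 0.25 and 0.88 in A549 normal, A549 oncosphere, H2023 normal and H2023 oncosphere culture. With limma on all 16 libraries and Benjamini-Hochberg adjustment over 18227 genes, the adjusted p-values were 0.0697, 6.14e-04, 0.482 and 0.0126, so that HIF1A passed the threshold of 0.05 in the oncosphere cultures. In A549 normal culture it also passed with the 8 A549 libraries alone (adjusted p = 0.0353), by median-ratio scaling (0.038), without mitochondrially encoded genes (0.0413) and in the authors' deposited table (5.07e-04), and the H2023 oncosphere call was lost with the 8 H2023 libraries alone (0.0851). EPAS1 (ENSG00000116016, chr2:46293667-46386703) lay between 44.55 and 222 TPM and passed in no knockout comparison of the main fit, limma on all 16 libraries in 8 groups. With an added term for the replicate number it passed in oncosphere culture of both lines, higher in A549 and lower in H2023. In A549 oncosphere culture, where its difference was 0.62 (adjusted p = 0.101), it passed with the 8 A549 libraries (0.0364), with the 4 of the pair (0.0478) and in the authors' deposited table (0.00886). Its A549 levels were 132 and 168 TPM against 146 and 182 TPM in normal culture, then 72.7 and 79.0 against 104 and 131 TPM in oncosphere culture, wild type first. In H2023 they were 142 and 222 against 123 and 104 TPM, then 68.0 and 106 against 44.55 and 57.9 TPM, lower in the labelled knockout in each culture.

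In A549 normal culture many HIF targets were higher in the labelled knockout. Of the 23 genes of the HIF set 13 rose and 1 fell, where 7.32% of all genes tested rose, 10.4% fell and 17.7% did either. The median difference was 0.84 in the HIF set, 0.48 in the glycolytic set and -0.033 over all genes. The 13 span nearly every role of the pathway: acid handling (CA9), oxygen sensing (EGLN3), vessel growth (VEGFA), glucose uptake (SLC2A1), mitochondria (BNIP3, BNIP3L, PDK1), collagen processing (P4HA1, P4HA2, PLOD2) and nuclear regulators (KDM3A, MXI1, BHLHE40). The epithelial marker sum given above was lower in the same 2 libraries, and its part in these counts was not tested.

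CA9 (ENSG00000107159, chr9:35673856-35681159), the membrane enzyme that hydrates carbon dioxide outside the cell, had 3.11 and 4.87 TPM in wild-type cells, against 29.6 and 57.45 under the knockout label. The groups did not overlap, and the difference was 3.11 with an SE of 0.67 (adjusted p = 0.008). PLOD2 (ENSG00000152952, chr3:146069440-146163653), which hydroxylates lysines of collagen, rose from 132 and 101 to 358 and 411 TPM, a difference of 1.73 ± 0.17 SE (adjusted p = 5.68e-05). BNIP3L, a receptor for the removal of mitochondria, rose from 26.1 and 28.6 to 84.1 and 93.7 TPM, a difference of 1.66 ± 0.21 SE (adjusted p = 2.83e-04). Its relative BNIP3 went from 50.3 and 42.8 to 79.9 and 111 TPM, a difference of 1.01. VEGFA (ENSG00000112715, chr6:43770184-43786487), the main growth factor for blood vessels, rose from 40.96 and 39.97 to 90.9 and 130 TPM, a difference of 1.40 ± 0.21 SE (adjusted p = 9.16e-04). MXI1, a repressor that competes with MYC for its partner, rose from 7.82 and 9.75 to 21.4 and 22.0 TPM, and P4HA2, a subunit of collagen prolyl hydroxylase, from 20.4 and 21.6 to 44.6 and 52.35 TPM, with differences of 1.22 and 1.17. In each of these genes every labelled knockout library exceeded every wild-type library. The genes were chosen for large differences past the threshold, which makes such separation likely, so it is no separate support here or below. The share of all genes whose groups did not overlap was not counted. CA12, a second membrane carbonic anhydrase, was the 1 gene of the set that fell, from 312 and 330 to 148 and 218 TPM, a difference of -0.83 ± 0.16 SE (adjusted p = 0.00396).

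In the glycolytic set 4 genes rose and 1 fell in this pair, where 7.32% of all genes rose and 10.4% fell, and 15 of 17 differences were positive. PFKFB4, an enzyme that sets the level of the allosteric activator of phosphofructokinase, rose from 4.07 and 3.55 to 18.0 and 19.9 TPM, a difference of 2.05 ± 0.22 SE (adjusted p = 1.1e-04). PFKFB3, the paralogue known for its strong kinase activity, fell from 211 and 183 to 97.75 and 71.4 TPM, a difference of -1.22 ± 0.37 SE (adjusted p = 0.0411). The calls for these 2 isozymes of the same step had opposite directions, and that for PFKFB3 was lost by median-ratio scaling (adjusted p = 0.0504). HK1, the hexokinase of most tissues, rose from 24.3 and 24.1 to 40 and 46.05 TPM (difference 0.80), PKM, pyruvate kinase, from 2453 and 2466 to 3740 and 4387 TPM (0.72), and ALDOA, the main aldolase, from 1550 and 1618 to 2022.52 and 2376 TPM (0.47). The 17 transcripts added up to 18977 and 19148 TPM in wild-type cells, against 24121 and 27468 under the knockout label, the highest sums of the 16 libraries.

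Single libraries weighed on these counts. Of the 13 HIF-set genes that rose, 7 were called without wild-type replicate 1 and 6 without labelled knockout replicate 2, and the genes called whichever library was left out were BNIP3, BNIP3L, MXI1, P4HA2, PLOD2 and VEGFA. CA9, EGLN3, KDM3A and PDK1 missed the threshold in those 2 cases, with CA9 differences of 2.85 and 2.64. In the glycolytic set HK1 and PFKFB4 were called in every case, and PFKFB3 in none (-1.45 to -1.0). The 4 higher glycolytic calls were 2 without wild-type replicate 1, 2 without wild-type replicate 2 and 2 without labelled knockout replicate 2. By median-ratio scaling the glycolytic split was 6 higher and 0 lower, with the share of all genes not counted. The authors' deposited table lists 15 higher and 1 lower in the HIF set and 12 higher and 1 lower in the glycolytic set, where 11.2% and 10.9% of its genes with an adjusted p-value were higher and lower.

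**Figure D1:**
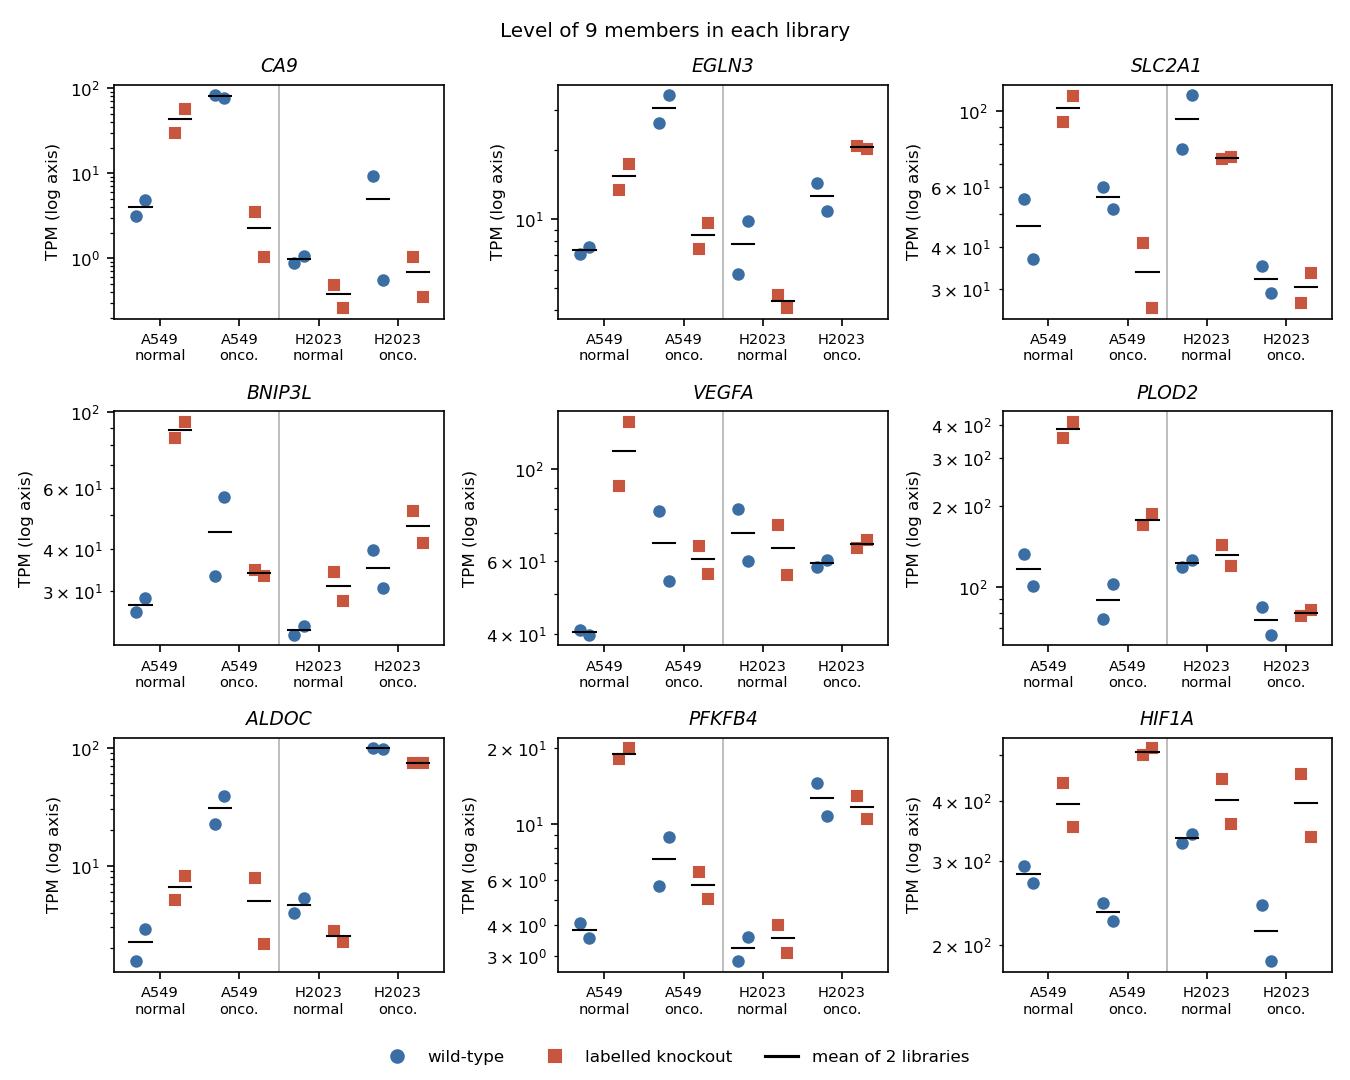
Level in TPM (log axis, a separate scale for each gene) of 9 members in each of the 16 libraries; blue circles are wild-type, red squares labelled knockout, and black lines the mean of 2 libraries. In A549 CA9 lies at 3.11 to 4.87 TPM in wild-type normal culture and at 77.0 to 82.85 TPM in wild-type oncosphere culture, and the labelled knockout has the reverse order.

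In A549 oncosphere culture 8 genes of the HIF set fell and 2 rose with the knockout label, where 10.5% of all genes fell and 10.2% rose, and the median differences were -0.34 in the HIF set, -0.15 in the glycolytic set and 0.027 over all genes. CA9 fell from 82.85 and 77.0 to 3.49 and 1.03 TPM, a difference of -4.74 ± 0.67 SE (adjusted p = 3.68e-04). EGLN3 (ENSG00000129521, chr14:33924231-34462774), the oxygen-sensing hydroxylase that is itself a target, fell from 26.1 and 34.8 to 7.38 and 9.61 TPM, a difference of -1.72 ± 0.24 SE (adjusted p = 2.93e-04). CA12 fell from 781 and 692 to 333 and 283 TPM, a difference of -1.26 ± 0.16 SE (adjusted p = 1.6e-04). In these 3 genes every labelled knockout library lay below every wild-type library, which their choice by size of difference made likely. The summed leukocyte markers were also lower there under the knockout label, at 58.6 and 78.8 TPM against 144 and 226 TPM, lowest library first. This lay in CD68, at 29.7 and 44.5 against 117 and 179 TPM, and the CD14 groups overlapped. EPCAM (0.82 and 1.03 against 9.4 and 7.94 TPM) and KRT19 (3.29 and 5.92 against 46.8 and 101 TPM) were lower too. CDH1 was higher, at 84.5 and 79.0 against 73.1 and 62.4 TPM, and the KRT8 and KRT18 groups overlapped. The part of these markers in the result was not tested.

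HILPDA, a lipid droplet protein, had 45.1 and 106 TPM in wild-type cells, against 38.9 and 18.9 under the knockout label, a difference of -1.32 ± 0.42 SE (adjusted p = 0.0454). The authors' deposited table gives HILPDA an adjusted p-value of 0.273, and lists 5 higher and 7 lower in the HIF set and 3 and 3 in the glycolytic set, where 9.29% and 11.4% of its genes with an adjusted p-value were higher and lower. SLC2A1, BHLHE40, BNIP3 and FAM162A also fell, by 0.74, 0.69, 0.54 and 0.53. Against this direction, HIF1A rose by 1.11, and PLOD2 rose from 75.8 and 102 to 169 and 186 TPM, a difference of 1.00 ± 0.17 SE (adjusted p = 0.00137). PLOD2 was thus higher under the knockout label in both A549 cultures, as was HK1, and CA12 was lower in both.

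Of the 17 genes of the glycolytic set 3 were lower and 2 higher in this pair, where 10.5% of all genes fell and 10.2% rose. These counts are small and near those shares. ALDOC, the aldolase isozyme of brain, fell from 22.55 and 38.7 to 7.93 and 2.16 TPM, a difference of -2.52 ± 0.41 SE (adjusted p = 8.98e-04). PGK1, phosphoglycerate kinase, fell from 714 and 857 to 517 and 533 TPM, a difference of -0.57. HK2, the inducible hexokinase, fell from 1.93 and 1.26 to 0.1 and 0.06 TPM, a difference of -1.25, at levels so low that the log2(TPM + 1) scale compresses it. ENO1, the main enolase, rose from 1285 and 1498 to 2009 and 2323 TPM (0.64), and HK1 from 35.7 and 41.8 to 52.7 and 57.0 TPM (0.49).

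Whichever of the 4 libraries of this pair was left out, CA9, CA12, EGLN3, ALDOC, HIF1A and PLOD2 were called. The count of HIF-set genes that fell was 3 without wild-type replicate 2, 5 without labelled knockout replicate 1 and 4 without labelled knockout replicate 2, and it was 4, with 4 higher, when the 8 A549 libraries were fitted alone. FAM162A, SLC2A1, BNIP3 and HILPDA missed the threshold in that A549 fit, with adjusted p-values of 0.0598, 0.0685, 0.0782 and 0.0815, and EGLN1 and EPAS1 passed it as higher (0.0283 and 0.0364). In the glycolytic set the lower calls numbered 1 without labelled knockout replicate 2, and the higher calls numbered 0 without wild-type replicate 1 and 0 without labelled knockout replicate 2.

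**Figure D2:**
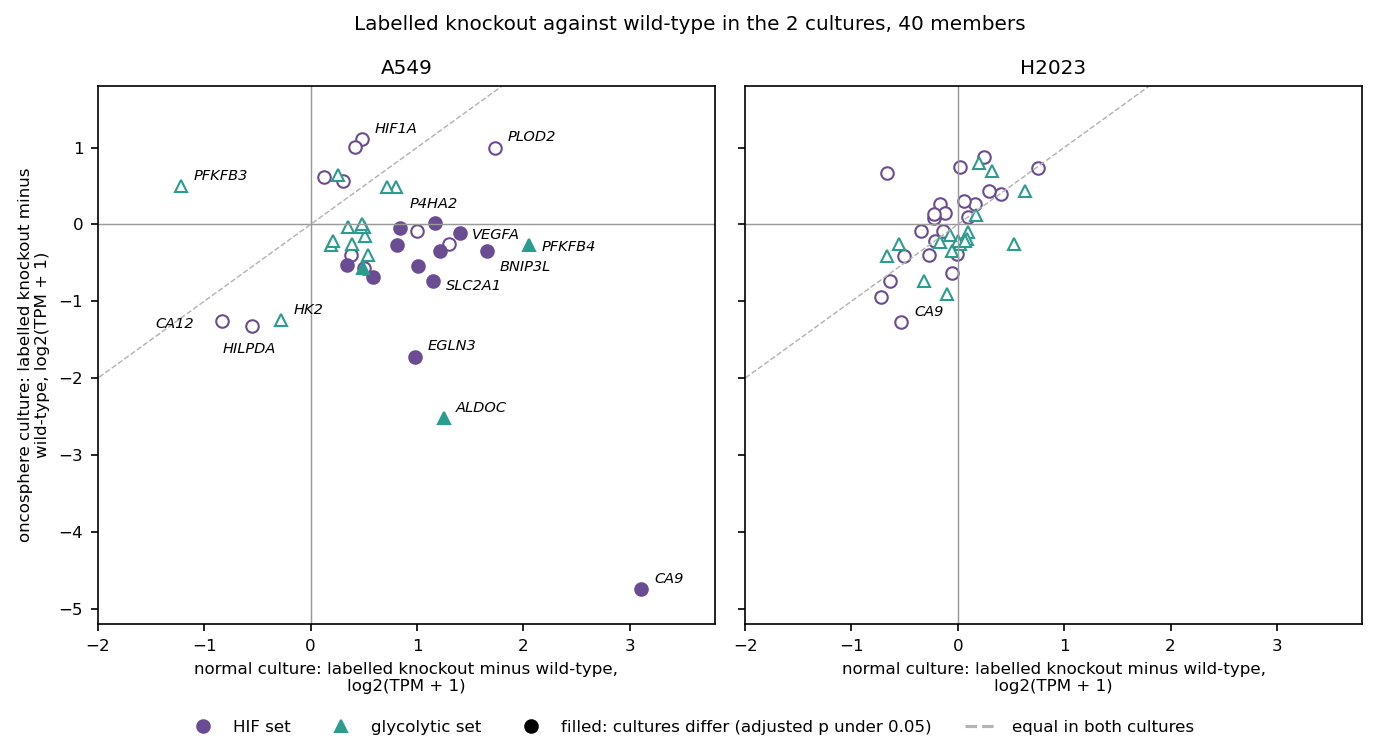
Difference in log2(TPM + 1) between labelled knockout and wild-type libraries in normal (horizontal) and oncosphere culture (vertical), 1 point for each of the 40 members, A549 left and H2023 right; filled points passed the test of the difference between cultures and the dashed line marks equal differences. In A549 the 15 filled points all lie below the dashed line, with CA9 at 3.11 and -4.74, and in H2023 no point is filled.

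The difference between the cultures was itself tested for each gene, as the knockout difference in oncosphere minus that in normal culture. In A549 it passed for 15 of the 40 genes, 12 of the HIF set and 3 of the glycolytic set, and all 15 values were negative, where 4.10% of all genes passed with a negative, 5.61% with a positive and 9.71% with either value. CA9 had -7.85 ± 0.95 SE (adjusted p = 8.73e-04), ALDOC -3.77 ± 0.58 SE (adjusted p = 0.00309), EGLN3 -2.70 ± 0.33 SE (adjusted p = 9.57e-04) and PFKFB4 -2.32 ± 0.32 SE (adjusted p = 0.00155). They were followed by BNIP3L (-2.01), SLC2A1 (-1.89), MXI1 (-1.56), BNIP3 (-1.55), VEGFA (-1.51) and BHLHE40 (-1.28), which passed whichever of the 8 libraries was left out, as did the 4 genes before them. P4HA2, P4HA1, PGK1, KDM3A and FAM162A passed with values from -1.14 to -0.87, and each missed the threshold when any 1 of 4 to 7 of the 8 libraries was left out. The HIF-set count was 8 without wild-type replicate 1 or labelled knockout replicate 2 of normal culture, and 8 without labelled knockout replicate 2 or wild-type replicate 2 of oncosphere culture. Fitted with the 8 A549 libraries alone, FAM162A, KDM3A and P4HA1 missed the threshold (adjusted p = 0.0652, 0.0601 and 0.0833), which left 9 HIF-set calls. HK2 (-0.97, adjusted p = 0.0422) and PFKFB3 (1.73, adjusted p = 0.0224) passed it in that fit, the second with a positive value. These values set libraries of different deposited tables side by side. TPM is scaled within a library and not within a table.

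The 15 genes fell into 3 patterns of calls. BHLHE40, BNIP3, CA9, EGLN3 and SLC2A1 passed in opposite directions, higher with the knockout label in normal and lower in oncosphere culture. Of all genes 7.32% rose in normal and 10.5% fell in oncosphere culture, so at most 7.32% can have done both. The share that did both was not counted. SLC2A1 (ENSG00000117394, chr1:42925375-42959176), the main glucose transporter of tumour cells, had 55.2 and 36.9 against 92.8 and 111 TPM in normal culture and 59.9 and 51.6 against 40.9 and 26.4 TPM in oncosphere culture, wild type first. EGLN3 had 7.06 and 7.55 against 13.45 and 17.4 TPM, then 26.1 and 34.8 against 7.38 and 9.61 TPM. In neither culture did the groups of these 2 genes overlap, which is likely for genes picked by their calls in both. A further 7 (BNIP3L, KDM3A, MXI1, P4HA1, P4HA2, PFKFB4 and VEGFA) rose in normal culture with no call in oncosphere culture. BNIP3L had 33.2 and 56.4 TPM in wild-type cells, against 34.7 and 33.2 under the knockout label there, VEGFA 79.0 and 53.6 against 65.3 and 55.7 TPM, and PFKFB4 5.69 and 8.84 against 6.45 and 5.06 TPM. In these 3 genes the oncosphere groups overlapped. The remaining 3, ALDOC, FAM162A and PGK1, fell in oncosphere culture with no call in normal culture.

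In H2023 few members passed the test of the knockout label. In normal culture 0 of 23 HIF-set genes passed with limma, 3 had an unadjusted p under 0.05, and the authors' deposited table lists 0 with an adjusted p-value under 0.05. Of all genes 1.03% rose, 1.97% fell and 3.00% did either by limma, against 3.84% higher and 6.97% lower in that table. The largest differences, none past the threshold, were SLC2A3 (1.8 and 1.96 against 5.0 and 2.91 TPM, wild type first, 0.75), PDK1 (1.9 and 3.72 against 1.2 and 1.29 TPM, -0.72) and EGLN3 (5.73 and 9.83 against 4.68 and 4.09 TPM, -0.67). SLC2A3 is the high-affinity glucose transporter, and PDK1 is the kinase that shuts pyruvate out of the citric acid cycle. In the glycolytic set HK1 fell from 206 and 191 to 137 and 135 TPM, a difference of -0.55 ± 0.11 SE (adjusted p = 0.0178), opposite to its direction in A549. ALDOC (3.95 and 5.31 against 2.78 and 2.27 TPM) and ENO2, the neuronal enolase (22.6 and 19.9 against 39.2 and 28.4 TPM), differed by -0.67 and 0.63 without passing. HK1 itself missed the threshold when any 1 of the 4 libraries was left out, with differences from -0.60 to -0.49.

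In H2023 oncosphere culture 2 HIF-set genes rose and 1 fell, and 2 glycolytic genes fell, where 3.17% of all genes rose, 2.40% fell and 5.56% did either. These shares are of the main fit, and none was counted for the smaller fits given below. HIF1A rose by 0.88, and BHLHE40, a repressor of the clock gene family, rose from 69.95 and 53.9 to 109 and 98.45 TPM, a difference of 0.75 ± 0.17 SE (adjusted p = 0.0284). FAM162A, a mitochondrial protein linked to cell death, fell from 53.3 and 52.7 to 32.0 and 36.1 TPM, a difference of -0.63 ± 0.15 SE (adjusted p = 0.0325). PFKP, the platelet-type phosphofructokinase, fell from 41.1 and 56.2 to 22.7 and 27.9 TPM, a difference of -0.91 ± 0.24 SE (adjusted p = 0.0458). GPI, which isomerizes glucose 6-phosphate, fell from 464 and 540 to 296 and 301 TPM, a difference of -0.74 ± 0.18 SE (adjusted p = 0.0326). PFKL, the liver-type phosphofructokinase, had 48.8 and 33.7 against 52.1 and 97.65 TPM and did not pass (0.80). CA9 differed between the 2 wild-type libraries here, at 9.33 and 0.56 TPM, and had 1.04 and 0.35 TPM in the labelled knockout, with a difference of -1.27 that did not pass. None of the 5 calls held when each library was left out in turn, which gave 1 to 3 calls, and 0 were called when the 4 libraries of the pair or the 8 of the line were fitted alone.

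The knockout difference did not pass between the H2023 cultures for any member: 0 of 40 were called by limma, 5 had an unadjusted p under 0.05, and 0.00549% of all genes passed. EGLN3 had the largest value, 1.34 ± 0.33 SE (adjusted p = 0.343). Between the lines the knockout difference was tested directly, as H2023 minus A549. In normal culture 11 HIF-set and 3 glycolytic genes passed, all with negative values, where 5.46% of all genes passed with a negative and 6.61% with a positive value. Among these 14, CA9 (-3.64), PFKFB4 (-1.95), PDK1 (-1.72), EGLN3 (-1.64), PLOD2 (-1.63) and VEGFA (-1.52) had the largest values after ALDOC is set aside, which had -1.91 and missed the threshold without mitochondrially encoded genes (adjusted p = 0.0537) and by median-ratio scaling (0.0521). In H2023 normal culture CA9 was near the floor, at 0.89 and 1.07 TPM in wild type and 0.49 and 0.26 TPM in the labelled knockout. A fall there could hardly show on the log2(TPM + 1) scale. The calls that held without each library in turn were EGLN3, MXI1, PLOD2, VEGFA, HK1 and PFKFB4, and the count of 14 was 7 without A549 labelled knockout replicate 2, 8 without A549 wild-type replicate 1 and 9 without H2023 wild-type replicate 2. In oncosphere culture 5 genes passed with a positive value (CA9, EGLN3, ALDOC, CA12, BHLHE40; 9.37% of all genes) and 4 with a negative value (EPAS1, PLOD2, ENO1, HK1; 6.90% of all genes). That count of 9 was 4 without A549 labelled knockout replicate 2 and 6 without H2023 labelled knockout replicate 1. EPAS1, for which the main 16-library fit gave no knockout call in either line, had -1.35 ± 0.35 SE between them (adjusted p = 0.021).

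The culture comparisons asked how the same genes differ between oncosphere and normal culture within a line and genotype. The share of mitochondrially encoded genes was higher in every oncosphere library than in any normal library. Calls or counts without those genes are given below for the A549 labelled knockout and both H2023 genotypes. Values are not given for each call that changed. In A549 wild type 11 HIF-set genes were higher in oncosphere culture and 2 lower, where 19.1% of all genes were higher and 22.4% lower. CA9 rose by 4.04 ± 0.67 SE (adjusted p = 4.69e-04), from the levels given above. ANGPTL4, a secreted inhibitor of lipoprotein lipase, rose from 4.67 and 10.1 to 24.1 and 41.7 TPM, a difference of 2.04 ± 0.57 SE (adjusted p = 0.0123). EGLN3 rose by 1.91, BHLHE40 by 1.36 (49.3 and 60.1 to 118 and 168 TPM), CA12 by 1.19 and MXI1 by 1.06. ADM, the vasodilator peptide adrenomedullin, fell from 46.1 and 52.8 to 19.27 and 28.02 TPM, and EPAS1 fell by 0.96. In the glycolytic set ALDOC rose from 1.55 and 2.93 to 22.55 and 38.7 TPM, a difference of 3.27 ± 0.41 SE (adjusted p = 5.62e-05). PFKFB3 fell from 211 and 183 to 22.8 and 33.0 TPM, a difference of -2.80 ± 0.37 SE (adjusted p = 9.48e-05). PFKP and ENO1 fell by 1.09 and 0.87, and PFKFB4, HK1 and PGK1 rose by 0.76, 0.65 and 0.52. The 11 higher HIF-set calls were 6 without normal wild-type replicate 1 and 7 without oncosphere wild-type replicate 2, and ANGPTL4 was lost in both cases. The 4 higher glycolytic calls were 2 without normal wild-type replicate 2 and 2 without oncosphere wild-type replicate 2.

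In the A549 labelled knockout most HIF-set calls of the same contrast were lower, with 10 genes lower and 1 higher, where 11.0% of all genes were lower and 11.4% higher. The glycolytic set had 10 lower and 1 higher. CA9 fell by 3.81 ± 0.67 SE (adjusted p = 0.00159), ADM from 63.45 and 65.95 to 17.9 and 16.9 TPM (-1.84), SLC2A1 by 1.60, BNIP3 from 79.9 and 111 to 37.5 and 34.5 TPM (-1.37), BNIP3L by 1.36 and PLOD2 by 1.11. Among the glycolytic enzymes PFKP fell from 462 and 373 to 111 and 138 TPM (-1.74), PFKFB4 from 18.0 and 19.9 to 6.45 and 5.06 TPM (-1.57) and ENO2 from 68.55 and 94.1 to 33.35 and 27.2 TPM (-1.39). The abundant enzymes of the lower pathway fell too: LDHA, lactate dehydrogenase A, by 0.81, TPI1 by 0.75, and GAPDH and PGAM1 by 0.74 each. Between wild type and labelled knockout, 7 genes passed in opposite directions across culture, namely BNIP3L, CA9, EGLN3, MXI1, PFKFB4, PGK1 and VEGFA, and the knockout-by-culture test above covers all 7. Of all genes 19.1% were higher in wild type and 11.0% lower in the labelled knockout, so at most 11.0% can have done both. The share that did both was not counted. The lower HIF-set calls numbered 6 without normal replicate 2. The 10 lower glycolytic calls numbered 5 without normal replicate 2, 6 without oncosphere replicate 1 and 6 without oncosphere replicate 2, and HK1 was the 1 higher call, lost without normal replicate 1 or without either oncosphere library. EGLN3 missed the threshold without mitochondrially encoded genes (adjusted p = 0.0544), as did ENO1, MXI1 and PGK1.

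H2023 wild type gave a mixed picture that depended on scaling. Over all genes the median difference between oncosphere and normal culture was -0.184, and median-ratio scaling moved it by 0.2 and removal of the mitochondrially encoded genes by 0.168. As deposited, 2 HIF-set genes were higher and 6 lower and 2 glycolytic genes higher and 7 lower, where 5.17% of all genes were higher, 22.2% lower and 27.4% either. With median-ratio scaling the split was 7 higher and 2 lower in the HIF set and 3 and 3 in the glycolytic set, and without mitochondrially encoded genes it was 5 and 2, then 2 and 3. The shares of all genes under these other scalings were not counted, so the members cannot be set against them. ALDOC rose from 3.95 and 5.31 to 98.8 and 98.2 TPM, a difference of 4.15 ± 0.41 SE (adjusted p = 5.2e-05), and PFKFB4 from 2.87 and 3.59 to 14.5 and 10.8 TPM, a difference of 1.68 ± 0.22 SE (adjusted p = 2.92e-04). CA12 rose from 287 and 276 to 490.16 and 522 TPM (0.84). ADM fell from 21.0 and 26.55 to 7.04 and 7.4 TPM (-1.58), SLC2A1 from 77.6 and 111 to 35.0 and 29.2 TPM (-1.51), PFKFB3 from 61.1 and 86.6 to 26.9 and 10.1 TPM (-2.07), PFKP from 111 and 182 to 41.1 and 56.2 TPM (-1.55) and HK1 from 206 and 191 to 100.14 and 100.43 TPM (-0.98). These 8 genes were the ones called whichever of the 4 libraries was left out. EPAS1, EGLN1, HIF1A, PLOD2, LDHA, GAPDH, ENO1 and PGAM1 were called lower as deposited and missed the threshold under both other scalings. The lower HIF-set calls numbered 3 without normal replicate 2 and 3 without oncosphere replicate 2, and the lower glycolytic calls 3 and 4. The higher HIF-set calls numbered 1 without normal replicate 1 and 1 without oncosphere replicate 1, and P4HA1 was called in none of the 4 cases.

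In the H2023 labelled knockout 5 HIF-set genes were higher and 4 lower in oncosphere culture and 2 glycolytic genes were higher and 11 lower, where 9.76% of all genes were higher and 22.7% lower. The 2 scalings moved the median of all genes, -0.117, by 0.144 and 0.136, and both gave 6 higher and 3 lower in the HIF set and 3 higher and 8 lower in the glycolytic set. Here too the shares of all genes under them were not counted. EGLN3 rose from 4.68 and 4.09 to 20.9 and 20.2 TPM, a difference of 2.00 ± 0.24 SE (adjusted p = 6.49e-05), CA12 from 265 and 236 to 575 and 648 TPM (1.28), and BHLHE40 from 51.2 and 48.25 to 109 and 98.45 TPM (1.05). ADM, SLC2A1 and EPAS1 fell by 1.47, 1.24 and 1.14. ALDOC rose from 2.78 and 2.27 to 73.6 and 74.4 TPM (4.42) and PFKFB4 from 4.0 and 3.08 to 12.85 and 10.4 TPM (1.48). PFKP fell from 133 and 132 to 22.7 and 27.9 TPM, a difference of -2.35 ± 0.24 SE (adjusted p = 2.52e-05), PFKFB3 from 94.7 and 88.0 to 36.2 and 20.6 TPM (-1.70), LDHA from 1913 and 1816 to 995 and 660.42 TPM (-1.20) and HK2 from 3.79 and 3.26 to 1.3 and 1.05 TPM (-1.06). The lower glycolytic calls were 7 without normal labelled knockout replicate 1, and HK2, GPI, PKM and TPI1 were lost. The 5 higher HIF-set calls were 3 without normal labelled knockout replicate 1 and 3 without normal labelled knockout replicate 2. Across all 4 culture comparisons CA12 was higher, and ADM, ENO1 and PFKP were lower. The ENO1 calls in A549 labelled knockout and in H2023 wild type were lost under both other scalings. The smallest shares of all genes in any of the 4 comparisons were 5.17% higher and 11.0% lower. The shares called in all 4 can be no larger than these and were not counted.

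**Figure D3:**
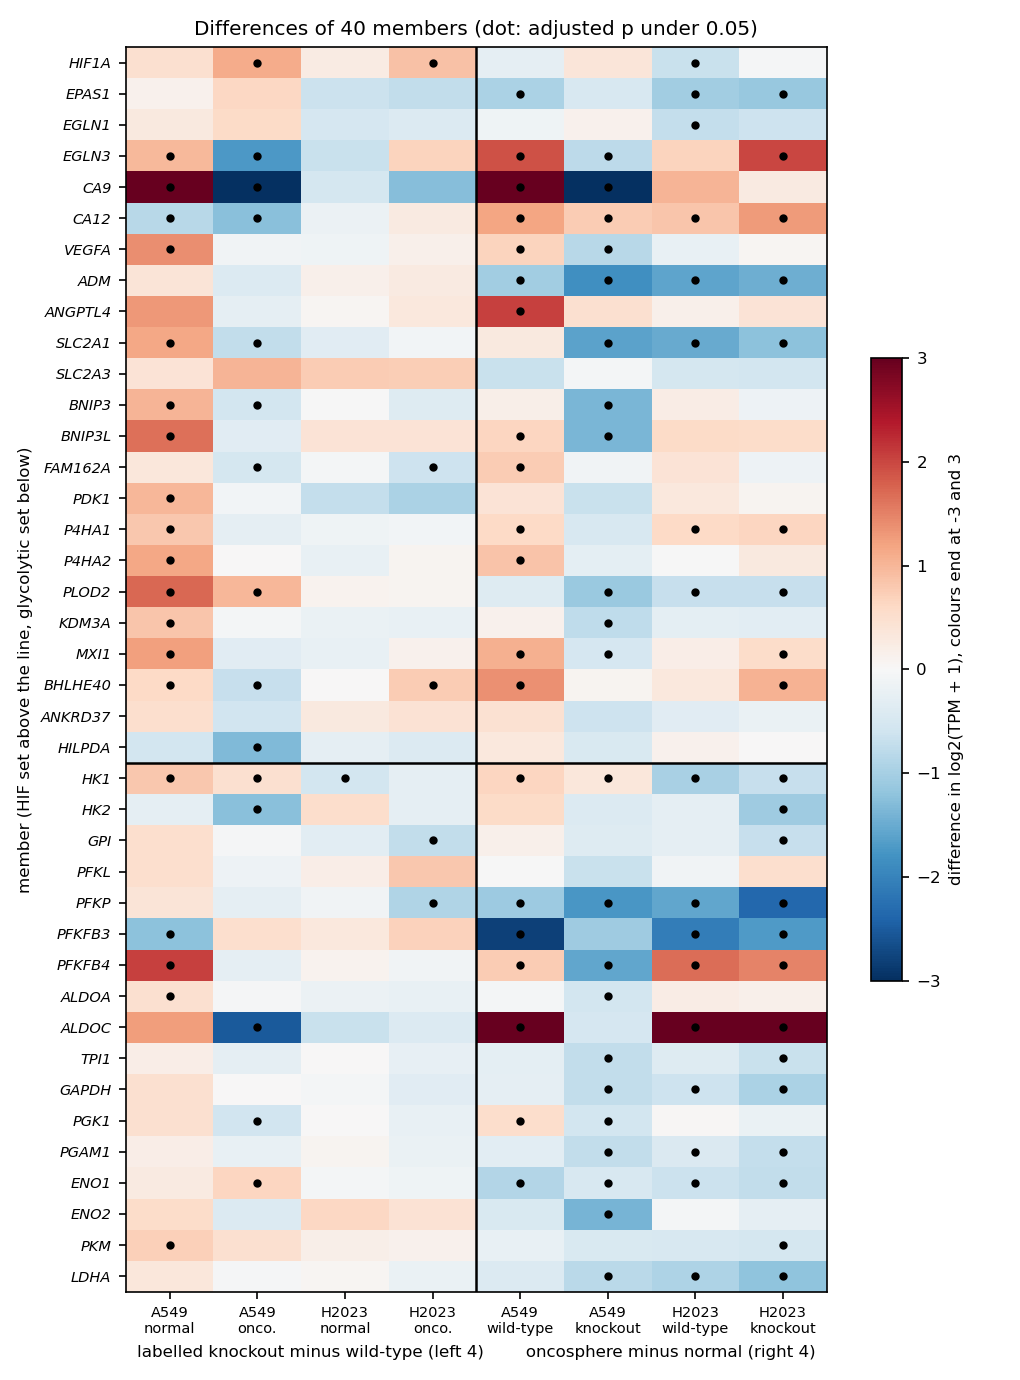
Differences in log2(TPM + 1) of the 40 members in the 4 knockout comparisons (left columns) and the 4 culture comparisons (right columns), red for higher and blue for lower, with a dot where the adjusted p was under 0.05. The A549 normal column is mostly red, the A549 oncosphere and A549 labelled knockout columns mostly blue in the HIF set, and ALDOC is red in 3 of the 4 culture columns.

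The glycolytic set changed in make-up as well as in level. TPM is scaled for transcript length, so levels of different genes can be set side by side. GAPDH was the most abundant member, between 3278 and 8652 TPM, followed in median level by ENO1, ALDOA, LDHA and PKM, and HK2 was the least abundant, between 0.06 and 3.79 TPM, with 9 of 16 libraries at 1 TPM or more. ALDOC made up 0.1% and 0.181% of aldolase TPM (ALDOA plus ALDOC) in A549 wild-type normal culture and 1.54% and 2.32% in oncosphere culture, and 4.10% and 3.40% in H2023 wild-type oncosphere culture. In the A549 labelled knockout the oncosphere shares were 0.535% and 0.142%. The 17 transcripts summed to 14197 and 16781 TPM in A549 wild-type oncosphere culture and 15748 and 17065 TPM in its labelled knockout, which overlap. H2023 normal culture had 19632 and 21799 TPM in wild-type cells, against 21089 and 19315 under the knockout label, which overlap as well. In H2023 oncosphere culture the sums were 15090 and 14607 TPM against 13620 and 11752 TPM, and the last is the lowest of the 16 libraries.

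**Figure D4:**
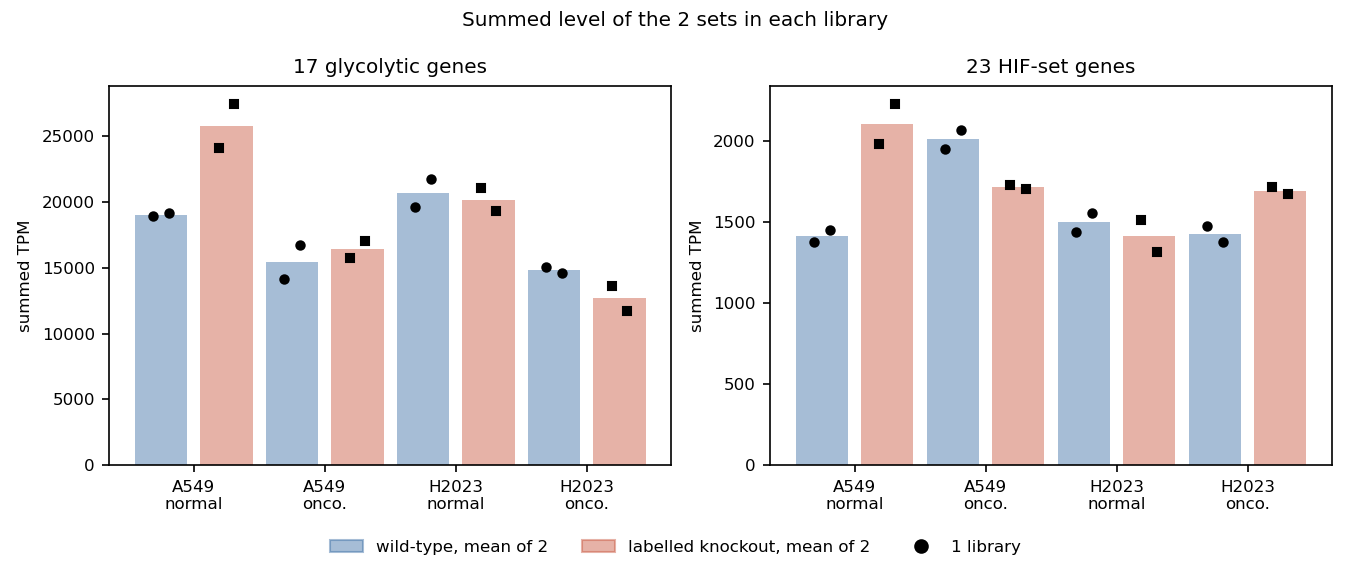
Summed TPM of the 17 glycolytic (left) and the 23 HIF-set genes (right) in each library; bars are means of 2 libraries and points the libraries. The glycolytic sum is highest in A549 normal labelled knockout, at 24121 and 27468 TPM.

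The lines were also compared in wild type, H2023 minus A549. In normal culture 3 HIF-set genes were higher and 3 lower, and 4 glycolytic genes higher and 6 lower, where 26.6% of all genes were higher and 14.9% lower. Median-ratio scaling moved the median of all genes by -0.102 and gave 2 higher and 6 lower in the glycolytic set, with the share of all genes not counted. SLC2A3 was the main transporter difference, at 13.3 and 37.0 TPM in A549 and 1.8 and 1.96 TPM in H2023 (-3.02 ± 0.45 SE, adjusted p = 2.23e-04). SLC2A1 was higher in H2023 by 1.03, so that the 2 transporters differed in opposite directions. HK1 was higher by 2.99 ± 0.11 SE (adjusted p = 3.71e-09), at 206 and 191 TPM against 24.3 and 24.1 TPM. Lower in H2023 were HILPDA (-1.42), ADM (-1.03), PFKFB3 (-1.42), ENO2 (-1.33), PFKP (-1.15) and PGK1 (-1.13). MXI1, VEGFA and ENO1 were higher by 0.81, 0.76 and 0.90. Of these genes, HILPDA, PFKFB3 and VEGFA did not keep their calls whichever library was left out. SLC2A1 missed the threshold without A549 wild-type replicate 2 or H2023 wild-type replicate 2, and the count of 16 was 10 without A549 wild-type replicate 2. The higher HIF-set calls numbered 1 without A549 replicate 2, the higher glycolytic calls 2 without either A549 library, and the lower glycolytic calls 3 without H2023 replicate 1.

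In oncosphere culture 1 HIF-set gene was higher in H2023 wild type and 11 lower, where 23.4% of all genes were higher, 24.4% lower and 47.8% either. CA9, at 82.85 and 77.0 TPM in A549 and 9.33 and 0.56 TPM in H2023, differed by -4.33 ± 0.67 SE (adjusted p = 2.41e-04). SLC2A3 differed by -2.89, HILPDA by -1.59, ADM by -1.56, EGLN3 by -1.20 and BHLHE40 by -1.19. In the glycolytic set 5 genes were higher and 5 lower: ALDOC by 1.70, HK1 by 1.35 and ENO1 by 1.12 at the upper end, PGK1 by -1.62, PFKP by -1.60 and LDHA by -1.25 at the lower. Of the genes named, ALDOC and HILPDA lost their call when single libraries were left out, ALDOC without A549 wild-type replicate 1 (1.33) and HILPDA without A549 wild-type replicate 2 or H2023 wild-type replicate 2. The 5 higher glycolytic calls were 3 without A549 replicate 1, and the 1 higher HIF-set gene was BNIP3 (0.50), lost without 2 of the 4 libraries.

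Beyond the members, 3 further lists were read. Of 22 other HIF targets, 14 rose and 0 fell with the knockout label in A549 normal culture (median 0.91), where 7.32% of all genes rose and 10.4% fell. In A549 oncosphere culture 1 rose and 5 fell, where 10.2% and 10.5% of all genes did. NDRG1, a stress-responsive gene often used in hypoxia signatures, had 18.6 and 27.5 against 134 and 148 TPM in normal culture and 79.5 and 178 against 14.6 and 13.3 TPM in oncosphere culture, wild type first. Its differences were 2.59 and -3.01, and the test between cultures gave -5.59 ± 0.62 SE (adjusted p = 5.13e-04). LOXL2, a collagen crosslinking enzyme, rose by 2.29 in normal culture. It also rose in oncosphere culture, by 1.71, where VLDLR, a lipoprotein receptor, fell by 1.47. Of these 22 genes 10 passed the test between cultures with a negative value and 0 with a positive one, where 4.10% and 5.61% of all genes did. In H2023 the list had 0 calls in either knockout comparison.

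Of all genes 7.32% rose and 10.4% fell in A549 normal culture, and 10.2% and 10.5% did in A549 oncosphere culture. The counts of the next 2 lists are small and in several cases near these shares. Of 12 genes of the oxygen-sensing machinery, 2 rose in A549 normal culture: CITED2, which displaces the factors from their coactivator and is itself induced by them, by 1.53, and ARNT, the beta subunit, by 0.68. CITED2 fell by 1.23 in A549 oncosphere culture, and the test between cultures gave -2.76 ± 0.34 SE (adjusted p = 9.76e-04). In H2023 normal culture ARNT2 rose by 1.23, where 1.03% of all genes rose. In H2023 oncosphere culture 0 of the 12 were called, where 5.56% of all genes were. Of 21 other genes of glucose metabolism, 2 rose and 5 fell in A549 normal culture, with HKDC1, a hexokinase relative, at -2.08, PDK4, a pyruvate dehydrogenase kinase, at -1.53 and ENO3, the muscle enolase, at 1.14. In A549 oncosphere culture 3 rose and 4 fell, with PCK2, the mitochondrial enzyme that makes phosphoenolpyruvate, at -2.25. H2023 had 1 fall in normal culture (PGD, -0.62) and 2 in oncosphere culture (PDHA1, -0.51, and MPC2, -0.43), where 1.97% and 2.40% of all genes fell. PDK4 was higher in oncosphere culture in each line and genotype, by 3.26, 3.88, 2.45 and 3.26 in A549 wild type, A549 labelled knockout, H2023 wild type and H2023 labelled knockout.

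Of the 40 genes, 12 were called in none of the 4 knockout comparisons of the main fit on all 16 libraries: ADM, ANGPTL4, ANKRD37, EGLN1, EPAS1 and SLC2A3 of the HIF set, and ENO2, GAPDH, LDHA, PFKL, PGAM1 and TPI1 of the glycolytic set. Of all genes 17.7%, 20.7%, 3.00% and 5.56% were called in A549 normal, A549 oncosphere, H2023 normal and H2023 oncosphere culture. The share of all genes called in none of the 4 was not counted. The authors' deposited table nevertheless gives an adjusted p-value under 0.05 to EGLN1, ENO2, GAPDH, LDHA and PFKL in A549 normal, to EGLN1, EPAS1 and SLC2A3 in A549 oncosphere and to ENO2 in H2023 normal culture, all with positive fold changes. ANGPTL4 had a difference of 1.30 ± 0.57 SE in A549 normal culture (adjusted p = 0.137), with labelled knockout libraries at 33.2 and 10.2 TPM, so that 1 of them stood at the level of the higher wild-type library. LDHA was at 2960 and 3026 against 3396 and 4301 TPM there, a difference of 0.35 ± 0.23 SE (adjusted p = 0.314), against an adjusted p of 0.0408 in the authors' deposited table. For GAPDH the levels were 5822 and 6031 against 7917 and 8652 TPM, a difference of 0.48 ± 0.16 SE (adjusted p = 0.0609) that passed in the authors' deposited table (adjusted p = 8.95e-05).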

How the data were processed

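RNA sequencing values came from 4 deposited tables, 1 for each line and culture. Total RNA was made into stranded mRNA libraries, per the labels' protocols, and HISAT2, StringTie and GRCh38 are named in the submitters' processing notes without role; the annotation is not given in the sources used here. Each library has a TPM column, scaled by the authors to a fixed total, so read depth is not kept. The deposited tables also give, per the file headers, a mean normalized count (signal), a log2 fold change with its error, a test score, a p-value and an adjusted p-value. The score had the sign opposite to the log2 fold change in all 18361 deposited rows and was not used. Rows repeated for 119 gene identifiers held identical values and were kept once, leaving 18227 genes.

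Every comparison was fitted with limma 3.58.1 (mean-variance trend, 2-sided) on log2(TPM + 1) of all 16 libraries in 8 groups, with no filter and Benjamini-Hochberg adjustment over all genes. The threshold was an adjusted p of 0.05. The script was tested on simulated data. The members, lists and tests were chosen with earlier results of these data known. Library values are given for HIF1A, EPAS1 and up to 6 genes of each set with the largest differences past the threshold in each comparison, or the 3 largest where fewer than 3 passed; ANGPTL4, LDHA and GAPDH in the last paragraph, and the further genes of the culture test, were chosen after their values were seen. Alternatives were another pseudocount, a filter on the mean, removal of 15 mitochondrially encoded genes, median-ratio scaling, fits of 8 or 4 libraries, a replicate block, leaving out each library and, for knockout comparisons, the authors' deposited adjusted p-value. Of the genes, 15590 carried a symbol as deposited and 2575 took one from a gene name table.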

Additional observations from a re-analysis of the deposited data

Results flagged for a closer look

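The knockout difference differed between cultures or lines by limma's test of the difference itself for the members below, with adjusted p under 0.05 over all genes. Between the A549 cultures, oncosphere minus normal, the values of log2(TPM + 1) were -7.85 for CA9, -3.77 for ALDOC, -2.70 for EGLN3, -2.32 for PFKFB4, -2.01 for BNIP3L, -1.89 for SLC2A1, -1.56 for MXI1, -1.55 for BNIP3, -1.51 for VEGFA and -1.28 for BHLHE40. They were -1.14 for P4HA2, -1.08 for P4HA1, -1.06 for PGK1, -0.88 for KDM3A and -0.87 for FAM162A.

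Between the lines in normal culture, H2023 minus A549, the values were -3.64 for CA9, -1.95 for PFKFB4, -1.91 for ALDOC, -1.72 for PDK1, -1.64 for EGLN3, -1.63 for PLOD2 and -1.52 for VEGFA. They were -1.5 for SLC2A1, -1.44 for MXI1, -1.39 for P4HA2, -1.35 for HK1, -1.26 for BNIP3L, -1.05 for KDM3A and -1.02 for BNIP3. CA9 was near the floor in H2023 normal culture, between 0.26 and 1.07 TPM.

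Between the lines in oncosphere culture the values were 3.47 for CA9, 2.40 for EGLN3, 2.12 for ALDOC, 1.53 for CA12 and 1.44 for BHLHE40, and -1.35 for EPAS1, -0.91 for PLOD2, -0.78 for ENO1 and -0.76 for HK1. These contrasts use the same A549 libraries more than once and do not stand apart from each other.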

How the results depend on the processing

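No called value changed its sign under any alternative; a member called in neither fit was counted as unchanged whatever its sign. In A549 normal culture 19 members were called against 29 in the authors' deposited table. In H2023 normal culture 1 was called, against 0 with the 4 libraries of the pair, 0 with the 8 of the line and 2 in the authors' deposited table. The 5 calls of H2023 oncosphere culture were 0 in the fits of 4 and of 8 libraries, and the 17 of the H2023 wild-type culture comparison were 6 with its 4 libraries. CA9 in the oncosphere test between lines missed the threshold with a pseudocount of 0.1 (adjusted p = 0.103 by limma). Shares of all genes called were counted for the main fit and the authors' deposited table, and for no other alternative. A drop or gain in called members may therefore be shared by all genes. The cause of these changes was not tested.

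Leaving out each library in turn gave 9 to 20 called members for the knockout label in A549 normal, 7 to 14 in A549 oncosphere, 0 to 0 in H2023 normal and 1 to 3 in H2023 oncosphere culture. For culture it gave 15 to 20 in A549 wild type, 13 to 19 in A549 labelled knockout, 10 to 17 in H2023 wild type and 15 to 22 in H2023 labelled knockout. Between wild-type lines it gave 10 to 14 in normal and 17 to 19 in oncosphere culture. The tests of a difference between knockout effects gave 10 to 16 in A549, 0 to 0 in H2023, 7 to 16 in normal and 4 to 9 in oncosphere culture. A group left with 1 library was assumed to vary like the others.

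The labels tie same-numbered libraries by the number alone. Their deviations from the group means had correlations across 14823 genes of 0.075, 0.131, 0.027 and 0.461 between knockout and wild type, and of 0.121, 0.096, 0.162 and 0.134 between cultures. The replicate block was a term for the replicate number, fitted per line and shared by both cultures and genotypes. It could not follow a pairing within a single culture, such as the 0.461 of H2023 oncosphere culture. With the replicate block 23 members were called in A549 normal, 18 in A549 oncosphere, 1 in H2023 normal and 6 in H2023 oncosphere culture for the knockout label. The block gave 20, 24, 20 and 24 for culture in A549 wild type, A549 labelled knockout, H2023 wild type and H2023 labelled knockout. It gave 17 and 23 between lines, and 16, 0, 17 and 12 for the differences in knockout effect. HILPDA in A549 oncosphere culture (adjusted p = 0.051) and ALDOC between lines in normal culture (0.0658) lost their calls under the block, and 26 calls were gained. For the knockout label these were GAPDH, GPI, HIF1A and PGK1 in A549 normal, EGLN1, EPAS1, PKM and SLC2A3 in A549 oncosphere and EPAS1 in H2023 oncosphere culture. TPM keeps no depth, so counting error could not be given.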
